A study of Danio rerio with 2 samples.

Results

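Melanophores and xanthophores, the black and the yellow pigment cells of zebrafish, were compared with each other gene by gene in embryos 24 hours after fertilisation. The cells carried the transgene Tg(mitfa:GFP), in which the promoter of mitfa drives green fluorescent protein, and had been dissociated from embryos and sorted into a mitfa:GFP low and a mitfa:GFP high population. Each population gave 1 droplet library of single cells, so no comparison has a replicate and no p-value is given. Melanophores were the cells of cluster 6 and xanthophores those of cluster 3 in the deposited cell table, in which the authors' melanophore label covered 219 cells of cluster 6 and 0 of cluster 3. Cluster 6 held 219 cells (22 from the low library and 197 from the high library) and cluster 3 held 402 (78 and 324), together 621 of 4735 cells or 13.1%. The age, genotype and line were shared by both libraries. The GFP sort itself sets how many cells of each kind entered a library, so cell numbers were not compared.

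Both pigment cells arise from the neural crest, and both use Mitf and Sox10 in their early development. Melanophores oxidise tyrosine to melanin inside melanosomes. Xanthophores make yellow pteridines from GTP, a purine nucleotide, store them in pterinosomes, and also take up carotenoids. Tetrahydrobiopterin, an early product of the pteridine route, is the cofactor of phenylalanine hydroxylase, which supplies tyrosine.

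Counts of unique molecular identifiers (UMIs, 1 per captured RNA molecule) were summed over the cells of a cluster within a library and are given as CPM, the usual scaling of a sum to a common total. The sums were 237221 and 677105 UMIs for melanophores and xanthophores of the low library and 2158955 and 3208205 in the high library, so that 1 UMI was worth 4.22 CPM in the low library's melanophores and 0.312 CPM in the high library's xanthophores. Cells of the 2 clusters were of like depth, with medians from 9142 to 10960 UMIs, and mitochondrially encoded genes took 2.15% to 2.59% of UMIs. Brackets after a log2 ratio hold its exact 95% interval, which covers counting error and not the spread between embryos. Where a side had 0 UMIs it was set to 3 UMIs, and the fold is then a bound. Medians over a list count such a ratio at its bound. The melanophore markers listed for this check were higher in cluster 6 for 9 of 9 tested members, and the xanthophore markers were higher in cluster 3 for 9 of 10, the exception being mycbp2. Of the 6 macrophage markers mpeg1.1 and marco had 0 UMIs in both clusters. The list summed to 0 CPM in melanophores of both libraries and to 8.86 and 56.4 CPM in xanthophores. That was above the 1.14 and 4.32 CPM of the non-pigment clusters. Cluster 1 had 17.98 and 18.14 CPM, above xanthophores in the low library and below them in the high. The part of the macrophage list in the results was not tested. The summed macrophage, mesenchyme, epidermis, muscle, blood and retina markers stayed at or below 56.4 CPM in both clusters of each library. Neural progenitor markers summed to 31.0 to 110 CPM and neuron markers to 312 to 839 CPM, of which tubb5 gave 245 to 787 CPM, the non-pigment clusters having 1108 and 1113 CPM of the latter, and their part in the results was not tested. Because clusters were drawn from the same genes and from both libraries at once, the values describe the 2 clusters, and the repeat in a second library is not independent of how the cells were chosen.

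Of 4019 genes with at least 20 UMIs in the 2 clusters in each library, 217 were at least 2-fold higher in melanophores in both libraries (5.4%) and 229 at least 2-fold higher in xanthophores (5.7%). The median log2 ratio of melanophores over xanthophores over all tested genes was 0.01 (low library) and 0.10 (high library). Signs matched between libraries for 2849 genes (70.9%), and 797 genes had intervals clear of 0 on the same side in both, 468 towards melanophores and 329 towards xanthophores. A further 18 genes had intervals clear of 0 on opposite sides. Of the called genes, 43 were over 8-fold higher in xanthophores in both libraries and 26 in melanophores, counting bounds at their bound.

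**Figure D1:**
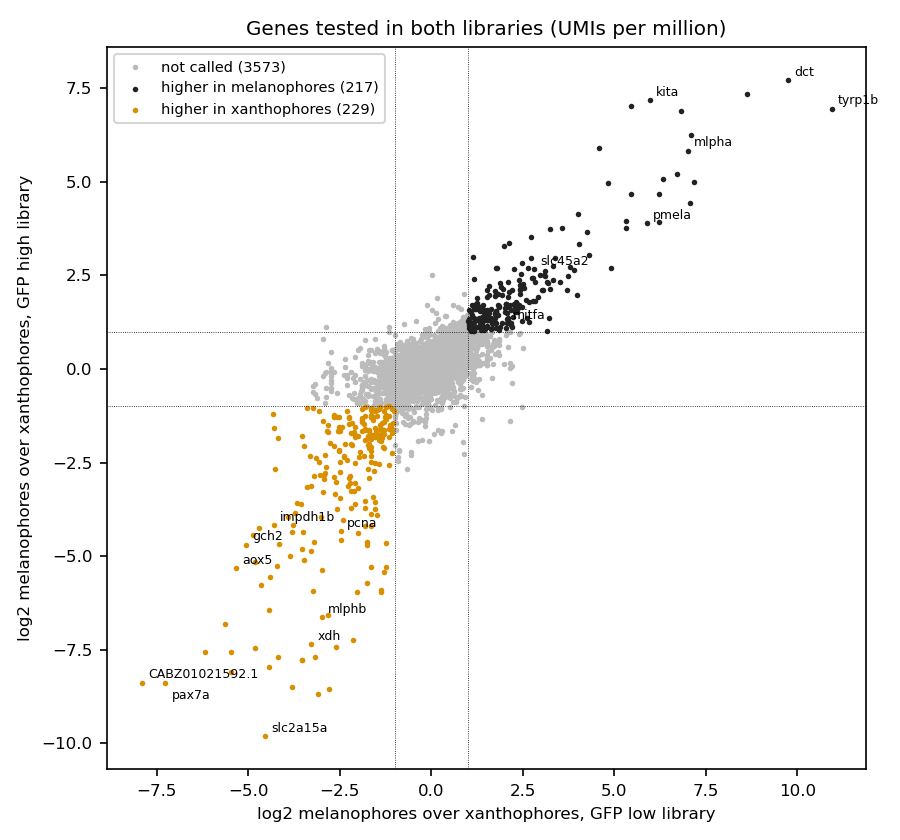
Log2 ratio of melanophores over xanthophores in the mitfa:GFP low library (x axis) and the mitfa:GFP high library (y axis) for 4019 tested genes, with genes at 0 UMIs in a cluster placed at their bound and dotted lines at 2-fold. The 217 genes called for melanophores lie at upper right, with tyrp1b and dct farthest out, and the 229 called for xanthophores at lower left.

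The 4 enzymes of melanin synthesis were all higher in melanophores in both libraries, and their summed log2 ratio was 7.998 [7.37, 8.71] and 6.47 [6.31, 6.64] for the low and high libraries. dct, encoding dopachrome tautomerase, stood at 3832 and 4478 CPM in melanophores of the low and high libraries and at 0 and 21.2 CPM in xanthophores. That is at least 865-fold higher in the low library and 211-fold higher in the high library. tyrp1b, a tyrosinase-related protein gene, had 687 UMIs in melanophores and 1 in xanthophores of the low library, a log2 ratio of 10.94 [8.45, 16.24], and 7439 against 89 in the high library, 6.96 [6.66, 7.27]. Its paralogue tyrp1a had log2 ratios of 8.63 and 7.34.

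tyr, encoding tyrosinase, which carries out the first step of melanin synthesis, differed least of the 4. It stood at 236 and 230 CPM in melanophores and at 26.6 and 46.1 CPM in xanthophores, log2 ratios of 3.15 [2.36, 4.00] and 2.32 [2.05, 2.59]. Xanthophores thus held tyr above the non-pigment clusters (0, 2, 4, 5, 7 and 8 summed), where it was at 0.854 and 1.36 CPM. In the high library dct and tyrp1a in xanthophores, at 21.2 and 4.05 CPM, lay below the 32.1 and 4.82 CPM of those clusters. tyrp1b was at 1.48 and 27.7 CPM in xanthophores of the low and high libraries, against 7.59 and 18.4 CPM there.

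Among 14 tested genes for the melanosome's matrix, transport and movement, 8 were higher in melanophores and 1, mlphb, in xanthophores, with median log2 ratios of 1.37 and 1.29. Over all tested genes these shares were 5.4% and 5.7%. pmela, which forms the fibrils on which melanin is laid down, was at 2883 and 3299 CPM in melanophores and 48.7 and 222 CPM in xanthophores, a difference of 59.2-fold and 14.9-fold. slc24a5, an ion exchanger of pigment cells, was at least 43.8-fold higher in melanophores of the low library (46 against 0 UMIs) and 129-fold higher in the high library (609 against 7 UMIs). oca2, a melanosomal anion transport gene, had 14 and 135 UMIs in melanophores and 0 in xanthophores of both libraries, and fell under the 20-UMI filter in the low library. kcnj13, a potassium channel gene, was 29.8-fold and 6.53-fold higher in melanophores, and atp7a, a copper transporter that loads tyrosinase, 2.68-fold and 2.53-fold.

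Other melanosome genes were carried by both pigment cells. slc45a2, a transporter of the melanosome membrane, was 6.96-fold and 6.36-fold higher in melanophores but stood at 242 and 297 CPM in xanthophores against 8.82 and 15.6 CPM in the non-pigment clusters. tspan36, a tetraspanin gene, was at 933 and 1166 CPM in xanthophores against 35.4 and 58.2 CPM in the non-pigment clusters. gpr143, a receptor of the melanosome membrane, had log2 ratios of 0.47 and 0.60, the cation channel gene trpm1b -0.26 and 0.16, rab32a, a GTPase of melanosome formation, -0.16 and 0.23, and myo5aa, the myosin that moves melanosomes along actin, 0.10 and -0.12. These 4 genes were within 2-fold in both libraries and stood in xanthophores at 185 to 552 CPM, where the non-pigment clusters had at most 17.7 CPM. Such transcripts were not particular to the 2 pigment cells. Cluster 1 held slc45a2 at 98.7 and 504 CPM and tspan36 at 423 and 1261 CPM, above xanthophores in the high library and below them in the low. It held gpr143 at 82.6 and 257, rab32a at 93.9 and 305 and trpm1b at 58.5 and 147 CPM. The xanthophores at 24 hours therefore held the transcripts of a part of the melanosome list. At this depth they lacked levels of dct, tyrp1a and oca2 beyond those of the non-pigment clusters. slc24a5 was at 0 and 2.18 CPM in xanthophores, against 1.14 and 1.85 CPM in those clusters.

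**Figure D2:**
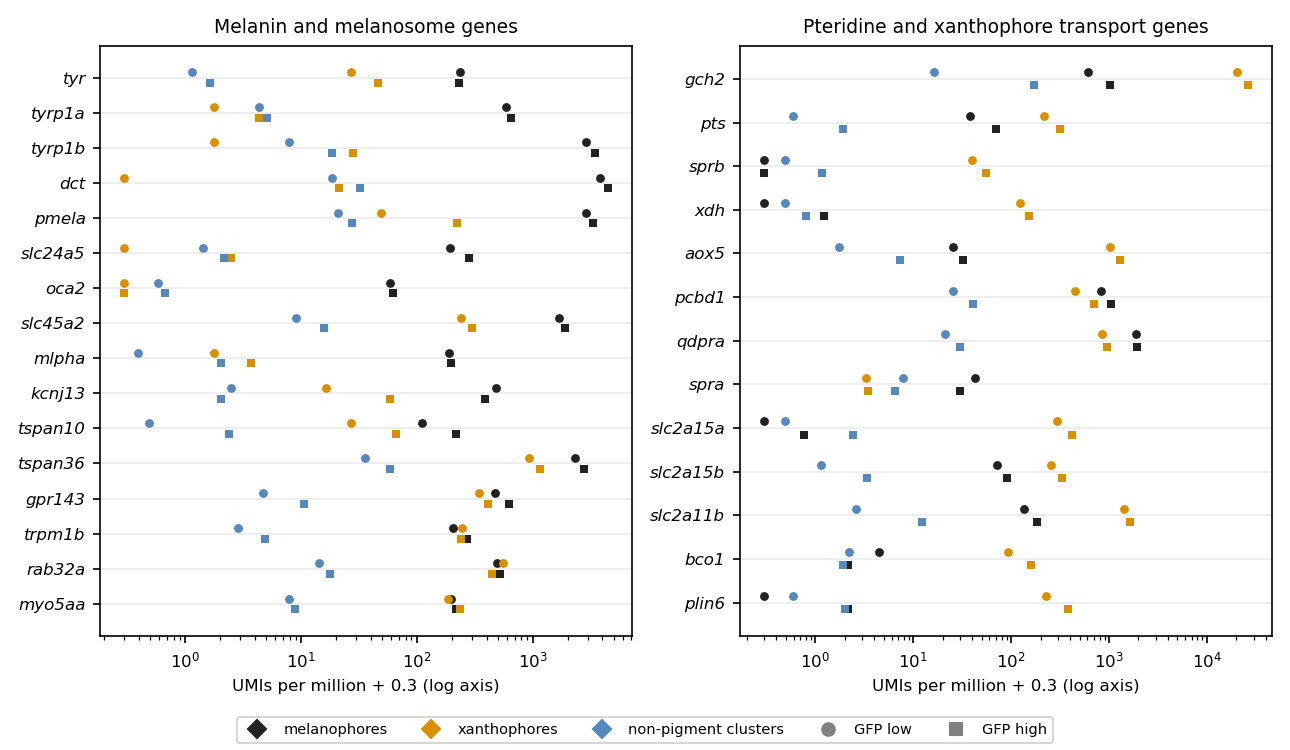
Level of melanin and melanosome genes (left) and of pteridine and xanthophore transport genes (right) in CPM plus 0.3 on a log axis, for melanophores (black), xanthophores (orange) and the non-pigment clusters together (blue), with circles for the GFP low and squares for the GFP high library. Black and orange points lie far apart for dct, tyrp1a, tyrp1b, slc24a5 and slc2a15a, among others, and next to each other for trpm1b, rab32a and myo5aa.

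Genes of the pteridine list did not all lie on 1 side. Of 8 tested genes, 5 were higher in xanthophores, 1 in melanophores and 2 in neither, with median log2 ratios of at most -2.09 and of -3.43. The low library's median rests in part on the bound of sprb. Over all tested genes 5.7% were called for xanthophores and 5.4% for melanophores. gch2, encoding the GTP cyclohydrolase that opens the route, was at 20303 and 26174 CPM in xanthophores and at 607 and 1016 CPM in melanophores, 33.4-fold and 25.8-fold higher in xanthophores. pts, for the enzyme of the second step, was 5.76-fold and 4.48-fold higher. sprb, a sepiapterin reductase gene, had 27 and 175 UMIs in xanthophores and 0 in melanophores of both libraries, at least 3.15-fold and 39.3-fold higher.

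The oxidases of the later, pigment-forming part were low in melanophores. xdh, encoding xanthine dehydrogenase, had 0 UMIs in melanophores of the low library against 83, and 2 against 482 in the high library, a log2 ratio of -7.34 [-10.39, -5.48]. aox5, an aldehyde oxidase gene used as a xanthophore marker, was at 1026 and 1280 CPM in xanthophores and 25.3 and 32.0 CPM in melanophores, 40.6-fold and 40.04-fold higher in xanthophores.

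The genes that recycle or spend tetrahydrobiopterin were not on the xanthophore side. qdpra, encoding dihydropteridine reductase, was at 1897 and 1951 CPM in melanophores and 851 and 958 CPM in xanthophores, 2.23-fold and 2.04-fold higher in melanophores. pcbd1, for the dehydratase of the same cycle, had log2 ratios of 0.88 [0.61, 1.15] and 0.59 [0.50, 0.67]. pah, for the phenylalanine hydroxylase that spends the cofactor, had log2 ratios of 0.71 and 0.91. All 3 were above the non-pigment clusters in both pigment cells: pcbd1, for example, stood at 1056 CPM in melanophores and 703 CPM in xanthophores of the high library against 40.01 CPM there. Thinly counted spra, the other sepiapterin reductase gene, had 10 and 64 UMIs in melanophores against 2 and 10 in xanthophores, log2 ratios of 3.84 and 3.25, and missed the filter in the low library.

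Transporter and lipid genes of xanthophores showed the same contrast, with 5 of 5 tested genes higher in xanthophores and median log2 ratios of at most -4.18 and of -6.43. The low library's median is the bound of plin6, which had 0 UMIs in melanophores there. The share over all tested genes was 5.7%. slc2a15a, a gene of the glucose transporter family, had 200 and 1331 UMIs in xanthophores against 0 and 1 in melanophores. slc2a15b stood at 253 and 331 CPM in xanthophores and at 71.7 and 89.9 CPM in melanophores, 3.52-fold and 3.69-fold higher. slc2a11b was 10.6-fold and 8.89-fold higher in xanthophores. plin6, of a family that coats lipid droplets, had 155 and 1217 UMIs in xanthophores against 0 and 4 in melanophores. bco1, a carotenoid oxygenase gene, had 62 and 511 UMIs against 1 and 4.

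Purine synthesis supplies GTP, and genes of its first step, of later steps to IMP and of the turn to GMP were higher in xanthophores. Of 19 tested genes 10 were called for xanthophores and 1 for melanophores, where the shares over all tested genes were 5.7% and 5.4%. Median log2 ratios were -1.43 and -2.18. The summed level was 11029 and 12377 CPM in xanthophores against 1872 and 1946 CPM in melanophores. ppat, for the committing step, was 13.3-fold and 14.5-fold higher in xanthophores. paics stood at 1415 and 2260 CPM in xanthophores against 101 and 111 CPM in melanophores, and atic, for the last steps to IMP, at 917 and 1262 CPM against 63.2 and 39.8 CPM. impdh1b, for the turn from IMP towards GTP, was at 5153 and 5151 CPM in xanthophores and 261 and 285 CPM in melanophores, log2 ratios of -4.30 [-4.69, -3.94] and -4.18 [-4.29, -4.06]. gmps, for the next step, was 7.58-fold and 7.61-fold higher.

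Other members were not called. adsl, which acts both on the way to IMP and in the branch to AMP, had log2 ratios of -0.46 [-1.08, 0.12] and -1.15, gart -0.99 and -0.69, prps1b -0.02 and 0.12 beside -2.49 and -2.75 for its paralogue prps1a, aprt 0.51 and -0.01, and mthfd2 -0.35 and 0.00. Melanophores had paics, atic and ppat near the non-pigment clusters, where paics was at 78.4 and 96.2 CPM. They had impdh1b above those clusters, at 261 and 285 CPM against 71.7 and 88.4 CPM. gmps was also above, at 156 and 155 CPM against 97.1 and 100 CPM. pnp4a, a purine nucleoside phosphorylase gene used as a marker of iridophores, the reflecting pigment cells, was the member higher in melanophores. It stood at 506 and 646 CPM in melanophores, 171 and 262 CPM in xanthophores and 3.13 and 3.83 CPM in the non-pigment clusters.

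**Figure D3:**
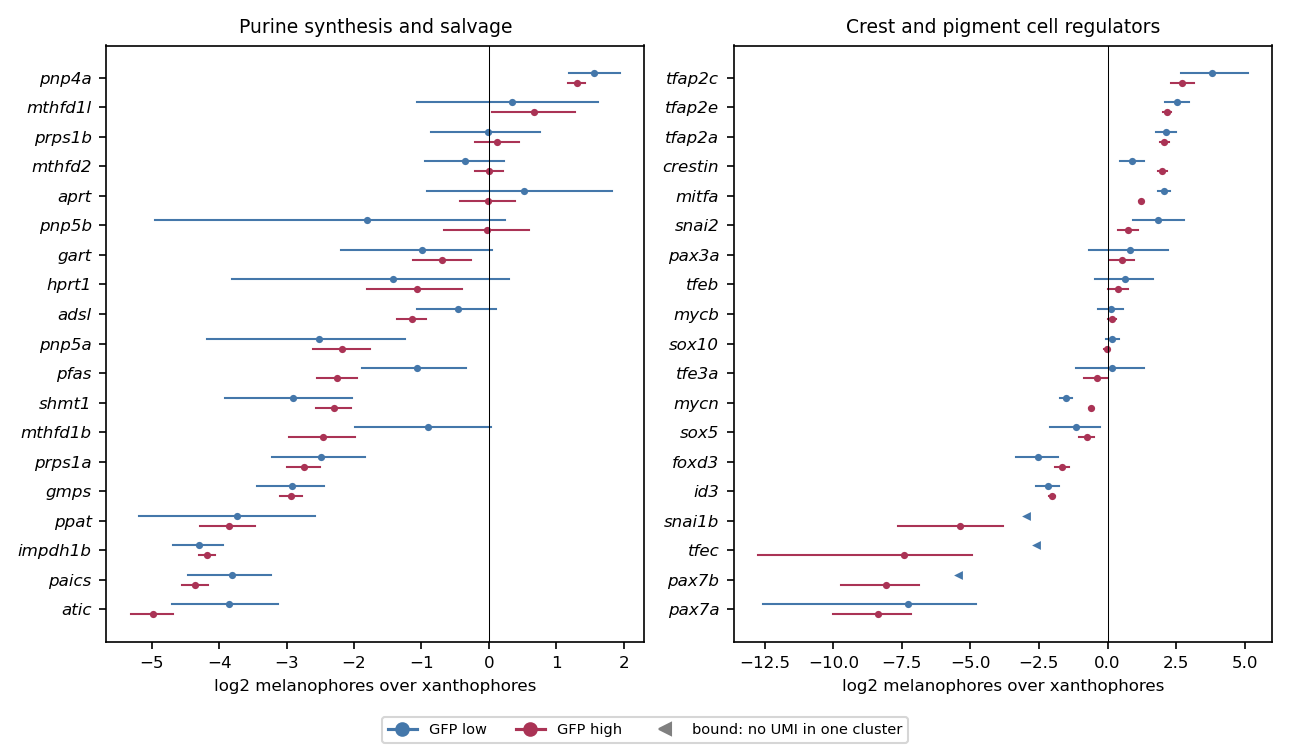
Log2 ratio of melanophores over xanthophores with exact 95% intervals for the tested genes of purine synthesis and salvage (left) and for crest and pigment cell regulators (right), in the GFP low (blue) and GFP high (red) libraries; arrowheads are bounds where a cluster had 0 UMIs. In the purine list atic, paics, impdh1b and ppat lie farthest towards xanthophores and pnp4a is alone on the melanophore side of 2-fold, while among regulators the tfap2 genes and pax7a and pax7b mark the ends.

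Regulators split both ways: of 19 tested, 4 were higher in melanophores and 6 in xanthophores, with median log2 ratios of 0.16 and -0.03. Over all tested genes these shares were 5.4% and 5.7%. mitfa, the master regulator of melanophores and the gene whose promoter drives the transgene used for the sort, was at 1699 and 1567 CPM in melanophores and 406 and 668 CPM in xanthophores, log2 ratios of 2.06 [1.84, 2.29] and 1.23 [1.15, 1.31]. Xanthophores therefore carried mitfa far above the 3.22 and 12.7 CPM of the non-pigment clusters. The AP-2 factor genes tfap2a (2.14 and 2.07), tfap2e (2.52 and 2.17) and tfap2c (3.80 and 2.73) were the other regulators higher in melanophores on this log2 scale.

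On the xanthophore side were pax7a and pax7b, paired-box factors needed for xanthophores, at 648 and 770 CPM and at 557 and 630 CPM in xanthophores. They had 1 and 0 UMIs in melanophores of the low library and 5 each in the high library. tfec, a relative of mitfa known in iridophores, had 52 and 256 UMIs in xanthophores and 0 and 1 in melanophores. foxd3, an early crest factor, was 5.74-fold and 3.16-fold higher in xanthophores, and id3, an inhibitor of helix-loop-helix factors, 4.51-fold and 4.05-fold. sox10 was close to equal, at 911 and 770 CPM in melanophores and 805 and 785 CPM in xanthophores, with log2 ratios of 0.18 [-0.06, 0.41] and -0.03 [-0.12, 0.06]. crestin, a marker of the migrating crest, had log2 ratios of 0.89 and 2.00 and mycn -1.50 and -0.60, each with 1 library within 2-fold.

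Of 26 receptor and ligand genes 5 were deep enough to be tested, and 2 were higher in melanophores and 1 in xanthophores. The shares over all tested genes were 5.4% and 5.7%. kita, the Kit receptor that melanophores need to migrate and survive, had 22 and 98 UMIs in melanophores and 1 in xanthophores of each library, log2 ratios of 5.97 [3.34, 11.34] and 7.19 [4.67, 12.50]. mcamb, a cell adhesion gene, was 28.5-fold and 31.2-fold higher in melanophores. csf1ra, the receptor of xanthophores, had 24 and 111 UMIs in xanthophores against 0 and 5 in melanophores, at least 2.80-fold and 14.9-fold higher. ednrba, an endothelin receptor gene, had log2 ratios of -0.52 and -0.07. mc5ra, a melanocortin receptor gene, had ratios of 1.38 and, with the sign turned, -1.33 from 10 against 11 and 41 against 153 UMIs.

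Replication genes were lower in melanophores. pcna and mcm2 to mcm6, which load and hold the replication machinery, were the 6 called for xanthophores among 7 tested genes, and ccnd1, the other, had log2 ratios of -1.14 and -0.45. Medians were -2.22 and -4.32. Over all tested genes 5.7% were called for xanthophores. The list of 20 summed to 88.5 and 126 CPM in melanophores, 486 and 569 CPM in xanthophores and 3257 and 3244 CPM in the non-pigment clusters. At an equal depth of 6231 UMIs a cell, at least 2 UMIs of the list were found in 3 of 22 and 29 of 190 melanophores (13.6% and 15.3%), in 36 of 68 and 138 of 279 xanthophores (52.9% and 49.5%), in 246 of 325 and 182 of 376 cells of cluster 1 (75.7% and 48.4%) and in 98.3% and 99.5% of cluster 0. Thinning left out 761 and 584 cells of cluster 0 for low depth and kept 240 and 183. Before thinning the shares were 31.8% and 28.4% in melanophores and 64.1% and 58.6% in xanthophores. They were 79.2% and 56.6% in cluster 1 and 92.1% and 92.2% in cluster 0. At equal depth xanthophores lay above melanophores and below cluster 0 in both libraries. They lay below cluster 1 in the low library but level with it in the high library.

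The proton pump that acidifies lysosomes and melanosomes was counted higher in melanophores. Of 20 tested subunit genes of the V-ATPase 4 were called for melanophores and 0 for xanthophores, and 17 were higher in melanophores in both libraries. Median log2 ratios were 0.58 and 0.73, against 0.01 and 0.10 over all tested genes. How many of all tested genes were higher in melanophores in both libraries was not counted. atp6v0ca, for a subunit of the membrane ring, stood at 2706 and 2920 CPM in melanophores and 908 and 1042 CPM in xanthophores. atp6v0a2b was 6.72-fold and 5.37-fold higher. Of 10 tested lysosome genes, the protease gene ctsc and the membrane protein gene cd63 were called for melanophores and 0 for xanthophores, with medians of 0.42 and 0.31. Over all tested genes 5.4% were called for melanophores and 5.7% for xanthophores.

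Among 63 solute carriers 13 were higher in melanophores and 7 in xanthophores, with medians of 0.41 and 0.33. The shares called over all tested genes were 5.4% and 5.7%. The melanophore side held slc7a8a and slc3a2a, which encode partners of amino acid exchange, at log2 ratios of 6.72 and 5.22 and of 2.28 and 1.53, and slc31a1, a copper importer, at 1.30 and 1.65. The xanthophore side held the 3 sugar transporter relatives above and slc15a2, a peptide transporter, 9.81-fold and 8.70-fold higher. Of 29 Rab genes 5 were called for melanophores and 1, rab8a, for xanthophores. Families of general function had 0 genes called in either direction. These were 81 tested ribosomal protein genes, 81 nuclear genes of oxidative phosphorylation and 39 proteasome genes. Within 2-fold, 55 of the oxidative phosphorylation genes were higher in melanophores in both libraries and 5 in xanthophores. Their medians were 0.18 and 0.27, against 0.01 and 0.10 over all tested genes. For ribosomal protein genes these counts were 29 and 16, and for proteasome genes 14 and 10. Such counts were not made over all tested genes.

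Paralogues and other pairs of genes whose symbols differ by a final a or b were looked at after their values were seen. Of 236 pairs with both genes tested, 3 were called in opposite directions, 7 in the same direction, 36 for 1 member and 190 for neither. Singly, 446 of the 4019 tested genes were called, 5.4% for melanophores and 5.7% for xanthophores. The pair counts were not compared with those of unrelated genes. mlpha and mlphb, which encode melanophilins, the adaptors that tie melanosomes to myosin, divided: mlpha had 45 and 422 UMIs in melanophores against 1 and 11 in xanthophores, and mlphb 0 in melanophores of both libraries against 68 and 443. snai1a, for a Snail factor of crest migration, was at 122 and 175 CPM in melanophores against 22.1 and 29.9 CPM, and snai1b had 0 and 3 UMIs in melanophores against 68 and 184 in xanthophores. atp1b3a and atp1b3b, for sodium pump subunits, had log2 ratios of -1.66 and -2.19 and of 1.26 and 1.75. Both members of the tyrp1 and of the pax7 pair were called in the same direction. Not every such symbol pair is a pair of paralogues.

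**Figure D4:**
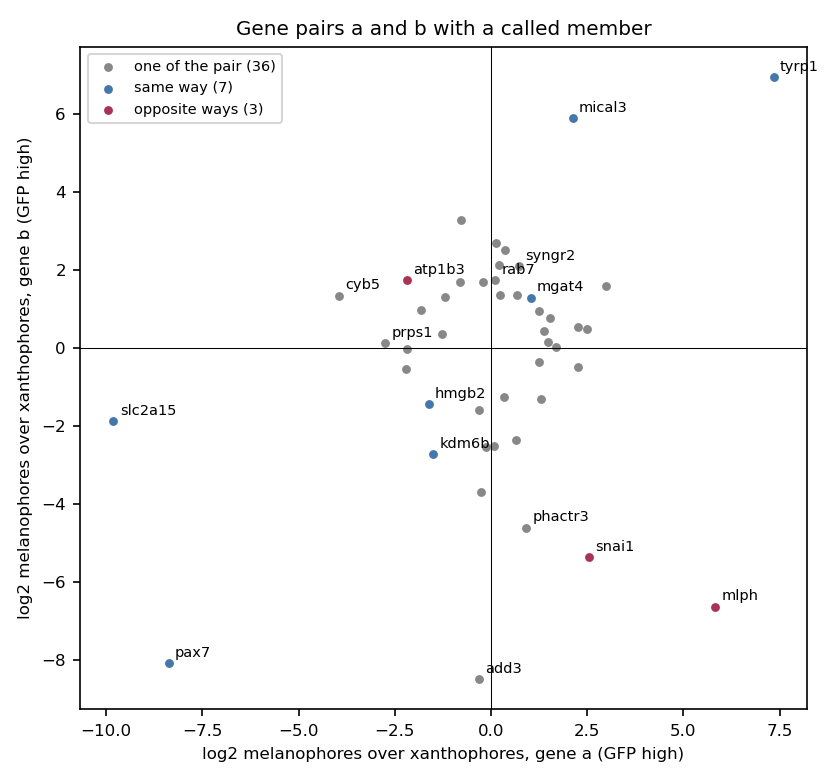
Log2 ratio of melanophores over xanthophores in the GFP high library for the gene ending in a (x axis) and the gene ending in b (y axis) of 46 symbol pairs with a called member, with bounds where a cluster had 0 UMIs. The pairs mlph and snai1 lie at lower right and atp1b3 at upper left, the 3 called in opposite directions.

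Outside these lists, the genes with at least 200 UMIs that led towards melanophores were si:ch73-389b16.1 (6.84 and 6.89 on the log2 scale) and zgc:91968 (at least 7.11, and 6.24), for which the files give no descriptive name. slc7a8a, icn (an S100-type calcium-binding protein), si:ch211-243a20.3 and slc6a17 followed. icn was at 481 and 1076 CPM in melanophores, against 491 and 250 CPM in the non-pigment clusters. tbx2a, a T-box factor gene, was at 194 and 230 CPM in melanophores and 4.43 and 9.04 CPM in xanthophores. mical3b, an actin-oxidising enzyme gene, ocstamp, g0s2 (an inhibitor of fat breakdown), slc29a3 (a nucleoside transporter of lysosomes), nat8l, si:ch211-195b13.1, fxyd1 (a sodium pump regulator) and arhgef4 completed the 15, with the smaller of their ratios from 3.05 to 4.57. Of these, nat8l was at 118 and 101 CPM in melanophores, below the 321 and 360 CPM of the non-pigment clusters.

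Towards xanthophores CABZ01021592.1 led, at 13225 and 24255 CPM against 54.8 and 73.2 CPM in melanophores, a level beside that of gch2. cx30.3, a gap junction protein gene, was at 925 and 1213 CPM against 0 and 6.48 CPM, at least 73.1-fold and 187-fold higher. si:dkey-251i10.2, tmem130, slc22a7a (an organic anion transporter), arhgef18a, msx3 (a homeobox factor), sik1 (a kinase), pik3ip1, mibp and add3b (an adducin of the membrane skeleton) were on the same side. uraha and mocs1, for urate breakdown and the molybdenum cofactor, were 25.1-fold and 54.3-fold, and 21.0-fold and 46.6-fold higher in xanthophores. prdx1, encoding a peroxide-removing enzyme, stood at 2951 and 4716 CPM against 164 and 185 CPM, and cyb5a, an electron carrier gene, at 1018 and 1154 CPM against 67.4 and 75.04 CPM.

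Levels of the called genes, which had been chosen by their ratio between the 2 pigment cells, were then set beside those of other cells. Of the 217 genes called for melanophores, 176 were at least 2-fold above the non-pigment clusters in melanophores and 84 were so in both pigment cells; xanthophores were at or below 50% of the non-pigment level for 29. Of the 229 called for xanthophores, 144 were at least 2-fold above the non-pigment clusters in xanthophores and 35 in both pigment cells, and melanophores were at or below 50% of the non-pigment level for 98, mcm2 to mcm6 and pcna among them. Against cluster 1, 124 of the 217 and 145 of the 229 were at least 2-fold higher in their own pigment cell. The shares of all tested genes that met these rules were not computed. The 2 sides also differ in depth, with 237221 UMIs in melanophores and 677105 in xanthophores of the low library.

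A common pigment cell set was also visible. Of 2995 genes within 2-fold between the pigment cells in both libraries, 234 were at least 4-fold above the non-pigment clusters in both cells and both libraries. The share of all tested genes that met this rule was not computed. Among them were sox10, pcbd1, gpr143, rab32a, trpm1b and pah, the crest factor gene zeb2a (982 and 1020 CPM in melanophores, 805 and 789 CPM in xanthophores, 121 and 128 CPM in the non-pigment clusters), the adhesion gene cdh1 (506 and 493, 473 and 516, and 68.7 and 59.5 CPM) and canx, a chaperone gene of the endoplasmic reticulum. Cluster 1 held sox10 at 758 and 769 CPM and zeb2a at 942 and 871 CPM, so these were not particular to the pigment cells. It held cdh1 at 91.1 and 253 CPM and pcbd1 at 224 and 608 CPM.

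The medians of the pigment panels lay far apart between the clusters, while single cells overlapped on either panel in the high library and on the xanthophore panel in the low library. The melanophore panel (tyr, tyrp1a, tyrp1b, dct, pmela, oca2, slc24a5 and slc45a2) had a per-cell median of 12072 and 13996 CPM in melanophores and 280 and 427 CPM in xanthophores of the low and high libraries. The xanthophore panel (gch2, aox5, pts, xdh, slc2a15a, slc2a15b and csf1ra) had 21545 and 29993 CPM in xanthophores and 624 and 999 CPM in melanophores. The lowest melanophore of the high library, at 3649 CPM of its own panel, lay below the highest xanthophore at 8656 CPM. On the xanthophore panel the lowest xanthophores, at 704 and 76.6 CPM, lay below the highest melanophores, at 2510 and 8659 CPM. At 6231 UMIs a cell, at least 2 UMIs of each panel were found in 68.2% (15 of 22, exact interval 45.1% to 86.1%) and 89.5% (170 of 190, 84.2% to 93.5%) of melanophores and in 54.4% (37 of 68, 41.9% to 66.5%) and 71.7% (200 of 279, 66.0% to 76.9%) of xanthophores. In cluster 0, made of other cells, it was 0 of 240, which allows up to 1.53%, and 2 of 183 (1.09%). Almost all pigment cells passed the panel of their own kind, so their share is that of the other panel, while cluster 0 had to pass 2 foreign panels. Taken singly, the xanthophore panel was found in 1 of 240 (0.42%) and 17 of 183 (9.29%) cells of cluster 0. The melanophore panel was found in 3 of 240 (1.25%) and 4 of 183 (2.19%). The share with both panels depends on depth, and at 1000 UMIs it was 18.2% and 29.9% of melanophores and 5.19% and 12.4% of xanthophores. It also rests on few genes. In melanophores most UMIs of the xanthophore panel were of gch2, 144 and 2193, with slc2a15b next at 17 and 194. Melanophores held xdh at 0 and 2, slc2a15a at 0 and 1 and csf1ra at 0 and 5 UMIs. In xanthophores slc45a2 gave 164 and 954 UMIs of the melanophore panel and pmela 33 and 712.

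**Figure D5:**
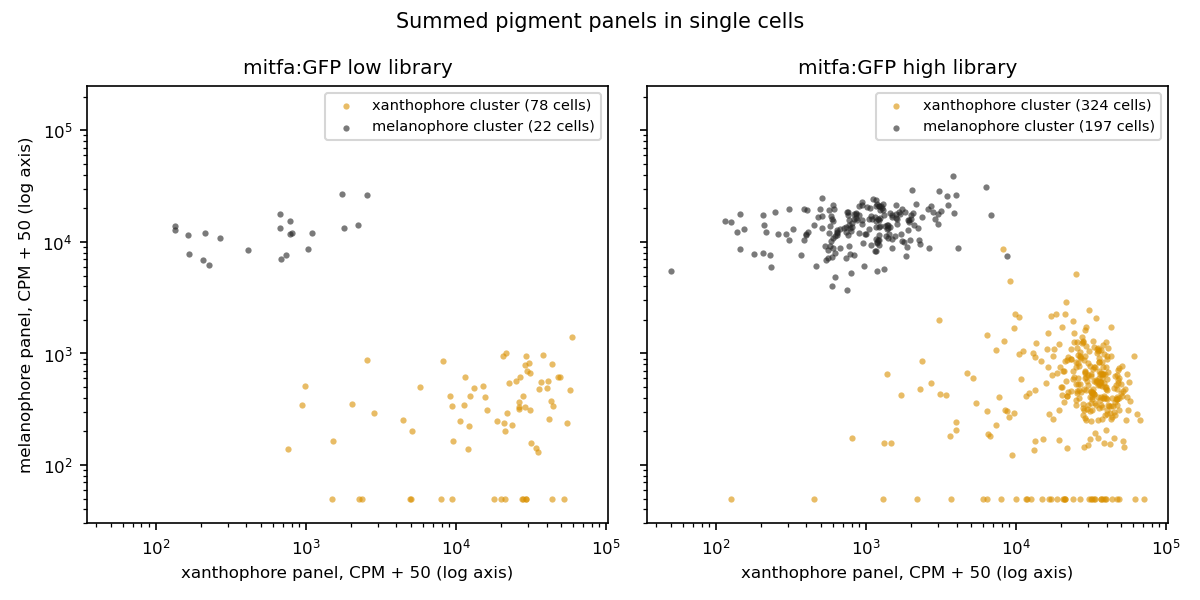
Summed xanthophore panel (x axis) and melanophore panel (y axis) of each cell in CPM plus 50, on log axes, for the melanophore (black) and xanthophore (orange) clusters of the GFP low (left) and GFP high (right) library. The 219 melanophores and 402 xanthophores lie mainly at upper left and lower right, with a few cells of the high library between them and cells at a summed melanophore panel of 0 in a row at the bottom.

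RNA released from broken cells can put a gene's UMIs into any droplet, and empty droplets were not analysed here. gch2 was found widely in the high library, with 31.1% of thinned cluster 0 cells holding a UMI against 91.9% of melanophores and 99.6% of xanthophores at the same 6231 UMIs. Levels were set beside a reference gene of the other lineage, chosen after its values were seen, as if 1 source kept its genes in 1 ratio. Each reference was among the genes farthest apart between the clusters, so a gene that differed less lies above its level by construction. In the high library the non-pigment clusters held CABZ01021592.1 at 110 CPM, above the 73.2 CPM of melanophores, and gch2 at 171 CPM. The part of released RNA in these levels was not tested. Scaled by CABZ01021592.1, xanthophore RNA would have given melanophores 84.1 and 79.0 CPM of gch2, where 607 and 1016 CPM were counted, and 0.906 and 0.946 CPM of pts, where 37.9 and 69.9 CPM were. For slc2a15b the figures were 1.05 and 1.00 CPM from the reference and 71.7 and 89.9 CPM counted. For pax7a, pax7b, xdh, sprb, plin6 and slc2a15a melanophores had at most 1 UMI in the low library and at most 5 in the high library. These counts are too few to set beside the level from the reference. csf1ra, also with 0 and 5 UMIs, was at 2.32 CPM in the high library against 0.104 CPM from the reference. Scaled by tyrp1b, which had 1 UMI in xanthophores of the low library, melanophore RNA would have given xanthophores 0.120 and 1.85 CPM of tyr against 26.6 and 46.1 CPM counted, 1.47 and 26.6 CPM of pmela against 48.7 and 222 CPM, and 0.860 and 15.2 CPM of slc45a2 against 242 and 297 CPM. For dct, tyrp1a and slc24a5 in xanthophores the counted level in the high library, 21.2, 4.05 and 2.18 CPM, was below that from the reference, at 36.1, 5.29 and 2.27 CPM.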

How the data were processed

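The authors sorted 24 hpf Tg(mitfa:GFP) cells, prepared libraries with the 10x Chromium 3′ v3.1 kit and made count matrices with Cell Ranger 6.1.2; the submitters' processing notes name GRCz11. The deposited counts are raw UMIs per gene and cell. Clusters and the melanophore label are those of the authors' cell table (Seurat, 3000 variable genes, 50 components). A deposited aggregated matrix kept 100% of the low and 86.6% of the high library's UMIs and served as an alternative.

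UMIs were summed per cluster and library, and 25107 gene IDs were collapsed to 24424 symbols. A gene was called when at least 2-fold in the same direction in both libraries. Genes named in the text were the list members, the called members of families set by symbol, the 15 leading each way with at least 200 UMIs, and 5 on which the libraries disagreed, of which 1 is not reported here. The members and lists were chosen with earlier results of these data known. No doublet caller was run; 1 barcode occurred in both libraries and belonged to these clusters. Single-cell shares were taken after thinning to 6231 UMIs, with the median of 20 draws for counts of cells. The script was tested on simulated data. Python 3.11.15, scipy 1.17.1 and, for trimmed-mean scaling, edgeR 4.0.16 were used. No sequence or promoter comparison was made.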

Additional observations from a re-analysis of the deposited data

Results flagged for a closer look

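Among the genes with at least 500 UMIs on which the libraries disagreed most, the 4 given here had ratios of melanophores over xanthophores with opposite signs in the low and high libraries, each interval clear of 0; the difference between libraries was not tested. marcksl1a, which encodes a substrate of protein kinase C that binds the membrane skeleton, had log2 ratios of -0.86 in the low library and 0.72 in the other, from 455 against 824 CPM and 698 against 425 CPM. nkap had -0.97 and 0.27, and abcf2a -0.79 and 0.41. gpm6ab, a membrane glycoprotein gene, had 0.76 and -0.21. All 4 lay within 2-fold in both libraries.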

How the results depend on the processing

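With 217 genes called for melanophores and 229 for xanthophores, the other scalings, totals and cell weights, the aggregated matrix, intervals clear of 0, a pseudocount of 5 CPM and leaving out the deepest 5 percent of cells gave 199 to 227 and 197 to 246. A minimum of 50 UMIs gave 104 and 119 and a 4-fold rule 65 and 92, of fewer genes or by a stricter rule; no filter gave 443 and 341. The high library by itself gave 283 and 302 and the low library 378 and 512. Without 1 of 22 and 1 of 197 melanophores and 1 of 324 xanthophores whose panel of the other class was high (an alternative chosen after seeing the data) the counts were 211 and 234. Of 120 recomputed list ratios 103 stayed within their interval, 17 moved and 0 reversed.

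The share of cells with both panels moved with depth. In melanophores of the high library it was 29.9% at 1000 and 71.3% at 3000 UMIs, 96.4% without thinning and 81.6% with at least 3 UMIs of each panel. In melanophores of the low library it was 18.2% at 1000 UMIs. In xanthophores of the high library it was 12.4%, 43.3%, 78.7% and 54.5% in the same order, and in those of the low library 5.19%, 28.4%, 66.7% and 32.4%.

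No paired analysis was possible because each population had 1 library. The 22 melanophores of the low library limit bounds there, since 1 UMI is 4.22 CPM. In these cells, fewer RNA molecules of a gene per cell and fewer cells with it cannot be told apart in summed counts.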

Other observations

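These gene groups were chosen after values had been seen. Xanthine dehydrogenase and aldehyde oxidase carry a molybdenum cofactor, and of 3 tested genes for making it 2 were called for xanthophores: mocs1 had 60 and 277 UMIs in xanthophores against 1 and 4 in melanophores, and mocs2 stood at 452 and 429 CPM against 59.0 and 60.7 CPM. gphna, for the last step, had log2 ratios of -0.46 and 0.18. Homeobox genes of the msx group divided, with msx1b at 186 and 243 CPM in melanophores and 51.7 and 75.7 CPM in xanthophores, and msx3 at 62 and 368 UMIs in xanthophores against 1 in melanophores of each library. Among 20 tested genes for sorting cargo to melanosomes 1, ap3b1a, was called for melanophores and 1, hps4, for xanthophores. These shares were close to the 5.4% and 5.7% called over all tested genes.

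coro1a, an actin-binding gene of the macrophage marker list, had 0 UMIs in melanophores of both libraries and 6 and 141 UMIs in xanthophores, where 88 of 324 cells of the high library held it (27.2%) against 1 of 767 cells of cluster 0 (0.13%), at median depths of 9963.5 and 4447 UMIs. Those shares were not thinned to equal depth, and cluster 1 is not among them. mpeg1.1 and marco were at 0 in both clusters. The whole list summed to 6 and 181 UMIs in xanthophores. It stood at 8.86 and 56.4 CPM there and at 17.98 and 18.14 CPM in cluster 1. Macrophage marker transcripts were therefore not particular to xanthophores.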
